A study of Homo sapiens with 12 samples.

Results

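The 52 genes described here encode proteins that prepare and carry out the copying of DNA in S phase, or that drive the step from G1 into S. They were chosen by name and function, but with earlier results of these data known, so counts of calls describe the set and do not test it. The set holds origin licensing factors, helicase activators, replicative polymerases with their clamp and clamp loader, and enzymes of nucleotide supply. It also holds chromatin and histone factors of S phase, fork, checkpoint and repair proteins, and E2F transcription factors with the E cyclins. All 52 were found among the 19923 protein-coding genes of the deposited counts. RNA came from SK-N-BE2 and NGP, a pair of established human neuroblastoma lines, labelled as MYCN-amplified and of wild-type genotype. Both were treated for 6 days with STM2457, an inhibitor of the m6A methyltransferase METTL3, or with DMSO. The 4 groups were SK-N-BE2 with DMSO, SK-N-BE2 with 12 µM STM2457, NGP with DMSO and NGP with 1 µM STM2457, with 3 replicate libraries in each. The labels do not say whether replicates came from separate cultures, so p-values measure the spread between these libraries, which may be technical. Each line had its own dose. The file headers keep the lines apart, which is taken here as a possible batch. Dose and such a batch cannot be told apart from the line itself.

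Replication is licensed in G1, when the origin recognition complex (ORC), CDC6 and CDT1 load the ring of MCM2 to MCM7 onto DNA. At the G1/S boundary, cyclin E with CDK2 releases E2F factors from the retinoblastoma protein, and E2F factors switch on the genes of licensing, DNA synthesis and nucleotide supply. The loaded ring becomes an active helicase with CDC45 and the GINS complex, and polymerases then copy both strands, held by the PCNA clamp. In MYCN-amplified neuroblastoma this programme is known to be highly expressed, and high levels of many of its transcripts mark proliferating cells.

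The libraries held 47242379 to 58159937 counted reads, of which the 52 genes took 0.208% to 0.225% in SK-N-BE2 with DMSO and 0.474% to 0.495% with STM2457. In NGP their share was 0.450% to 0.497% with DMSO and 0.753% to 0.776% with STM2457. One library stood apart from its group. NGP DMSO replicate 1 lay at -42.0 on the fourth principal component, against 29.2 and 13.1 for the other DMSO libraries of NGP. That component held 1.51% of the variance. The common coefficient of variation between replicates that edgeR fitted in NGP was 0.155 with this library and 0.0944 without it. The counts of calls in NGP, and the values of genes whose call or level it moved most, are therefore also given without it. Of 12 adrenergic neuroblastoma markers, 11 reached a mean of 1 CPM in each group. Levels are given as TMM-scaled CPM (reads scaled to library size), and levels of different genes are compared only after division by exon length (RPKM). In brackets, a log2 change is that of STM2457 over DMSO and the value after ± its standard error, while ± after a level is the SD of 3 libraries. In bulk RNA, fewer cells of a type and less RNA per cell cannot be told apart.

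Nearly the whole set rose in SK-N-BE2 and most of it rose in NGP. A gene is called where the adjusted p of edgeR's quasi-likelihood test, adjusted over all genes tested in that comparison, was under 0.05. In SK-N-BE2, 51 of the 52 genes were called higher with STM2457, where 26.9% of all 14013 genes tested were called higher. None was called lower by edgeR, where 27.8% of all genes were, and the count lower stayed at 0 at an unadjusted p under 0.05 and with DESeq2. In NGP, 38 of the 52 were called higher, where 19.4% of all 13610 genes tested were, and 1 was called lower (PRIM1), where 22.2% of all genes were. For the 52 genes the median change on the log2 scale was 1.05 in SK-N-BE2 and 0.77 in NGP, against -0.02 and -0.03 over all genes tested. The same 38 genes were higher in both lines, a pattern held by 10.5% of the 12952 genes tested in both.

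Separation between libraries gave much the same picture. All 3 STM2457 libraries lay above all 3 DMSO libraries for 51 of the genes in SK-N-BE2, where 33.2% of all genes did so, with CDT1 the exception. In NGP this held for 41 genes, where 28.4% of all genes did so, while PRIM1 lay wholly below and 10 genes overlapped. Those 10 were MCM7, CDT1, RFC2, RFC3, RFC4, SLBP, CHEK1, WDR76, E2F1 and E2F8. Without NGP DMSO replicate 1, 40 genes were called higher in NGP, with GINS1 and RAD51AP1 added, while 27.6% of all genes were then called higher. With genes that share over 10% of their exon length with another gene or have named pseudogenes set aside, 37 of 38 were called higher in SK-N-BE2 and 28 of 38 in NGP.

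**Figure D1:**
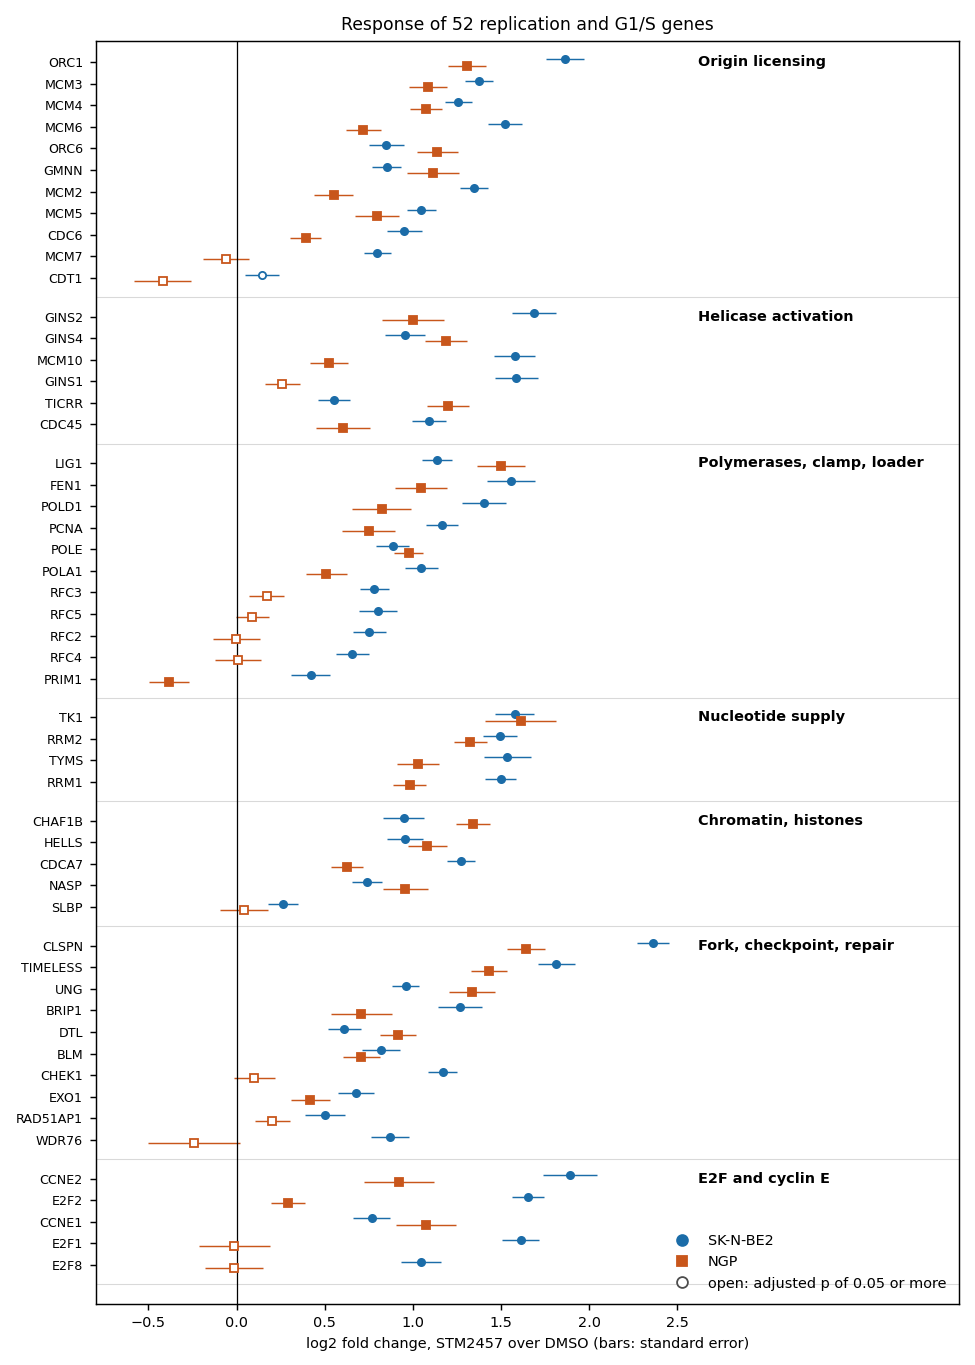
Log2 fold change of STM2457 over DMSO for each of the 52 genes, grouped by role, with the standard error as a bar, in SK-N-BE2 (circles) and NGP (squares). Open symbols were not called: 1 gene in SK-N-BE2 and 13 in NGP.

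Other measures moved with treatment in NGP. The share of reads from mitochondrially encoded genes was 2.78% to 3.64% with DMSO and 6.46% to 7.16% with STM2457 in NGP, while in SK-N-BE2 the ranges overlapped, at 8.43% to 11.3% and 8.23% to 10.3%. The summed level of the 11 mesenchymal and Schwann markers in the files was 188 to 256 CPM with DMSO and 499.7 to 561 CPM with STM2457 in NGP. In SK-N-BE2 it was 914 to 1013 CPM and 875 to 951 CPM. At least 1 CPM was reached by 5 of the 11 in NGP with DMSO and by 6 in the other groups, and of the Schwann markers SOX10 stayed below 1 CPM in all groups and had 0 reads in NGP with DMSO. Their part in the results was not tested. A sum over 12 immune, epithelial and endothelial markers stayed between 7.24 and 20 CPM in all libraries.

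The DNA before the start sites was read because E2F factors act on many of these genes. RefSeq promoter entries (GRCh38.p14) were matched for 46 of the 52 genes, and the 250 bases before each start were searched on both strands for TTTCCCGC, TTTGGCGC, TTTCGCGC and TTTGCCGC, letters that E2F factors are known to bind. MCM4, MCM5, GINS4, WDR76, CCNE2 and E2F8 had no entry. The letters were present for 18 of 46 genes (39.1%), against 4.60% of 15843 protein-coding genes in the table. The shorter CCAAT box was present for 67.4% of the 46 and for 40.2% of all genes. Of the 24 matches, 18 began within 100 bases of the start, with a median distance of 61 bases. The 18 genes with a match had median log2 changes of 1.09 (SK-N-BE2) and 0.83 (NGP), and the 28 without had 1.02 and 0.71, with overlapping ranges. A match is a description of letters, not of binding.

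The following windows are shown as examples. MCM6 is a licensing gene that rose in both lines and had the most matches of the genes searched. E2F1 is an E2F gene called higher in SK-N-BE2 only. CDT1 is a licensing gene called in neither line, and CLSPN is the gene with the largest rise. Each is printed 5′ to 3′ on the strand of the gene, and capitals mark the E2F letters on either strand. MCM6 lies at chr2:135876444-135876693 (minus strand), E2F1 at chr20:33686386-33686635 (minus strand), CDT1 at chr16:88803539-88803788 (plus strand) and CLSPN at chr1:35769979-35770228 (minus strand). None of the windows overlaps an annotated exon.
MCM6: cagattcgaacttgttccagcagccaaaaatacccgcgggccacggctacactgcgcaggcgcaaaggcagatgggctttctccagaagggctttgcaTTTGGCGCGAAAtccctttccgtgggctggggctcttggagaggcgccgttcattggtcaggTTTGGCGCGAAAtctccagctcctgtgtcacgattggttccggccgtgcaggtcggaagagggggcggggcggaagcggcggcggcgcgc
E2F1: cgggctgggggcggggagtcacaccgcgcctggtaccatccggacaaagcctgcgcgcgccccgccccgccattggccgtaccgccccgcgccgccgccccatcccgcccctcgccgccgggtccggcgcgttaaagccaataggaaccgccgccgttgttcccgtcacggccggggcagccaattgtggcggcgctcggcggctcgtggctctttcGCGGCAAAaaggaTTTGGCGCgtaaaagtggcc
CDT1: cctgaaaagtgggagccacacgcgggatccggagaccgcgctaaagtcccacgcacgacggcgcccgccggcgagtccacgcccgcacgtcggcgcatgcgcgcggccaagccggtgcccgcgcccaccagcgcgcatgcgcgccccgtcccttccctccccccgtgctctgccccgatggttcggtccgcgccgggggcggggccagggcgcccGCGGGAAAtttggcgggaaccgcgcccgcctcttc
CLSPN: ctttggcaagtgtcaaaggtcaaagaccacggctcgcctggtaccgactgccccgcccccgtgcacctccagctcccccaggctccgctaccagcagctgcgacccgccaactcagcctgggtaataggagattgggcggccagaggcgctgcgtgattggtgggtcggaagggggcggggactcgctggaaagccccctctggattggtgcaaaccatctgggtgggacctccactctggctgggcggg
In MCM6, 4 matches fall into 2 copies of TTTGGCGCGAAA, in which a match on each strand overlaps the other. E2F1 holds 2 matches, at 33 and 20 bases before the start, and CDT1 holds 1, at 35 bases. No E2F letters of the kinds searched are in the CLSPN window, although CLSPN rose most. The window of ORC1, the licensing gene that rose most in each line, holds none either.

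The counts by role from here on stand beside 26.9% of all genes called higher in SK-N-BE2 and 19.4% in NGP. Origin licensing was called higher for 10 of 11 genes in SK-N-BE2 (median log2 fold change 1.05) and for 9 of 11 in NGP (median 0.80). ORC1, the ATPase subunit of ORC, measured 8.88, 8.82 and 7.34 CPM in the DMSO libraries of SK-N-BE2 and 32.2, 31.8 and 29.5 CPM with STM2457, a 3.63-fold rise (log2 change 1.86 ± 0.11, adjusted p 2.41e-08). NGP held 23.7, 22.6 and 27.0 CPM of ORC1 with DMSO and 62.0, 60.5 and 62.1 CPM with STM2457 (log2 change 1.31 ± 0.11, adjusted p 5.61e-05). The groups lay far apart in both lines, and the rise was larger in SK-N-BE2 by 0.57 ± 0.15 (adjusted p 0.00933) on the log2 scale. ORC1 has a named pseudogene, so its counts are uncertain. ORC6, a smaller subunit of ORC, rose by 0.85 and 1.14 on the log2 scale in SK-N-BE2 and NGP.

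Of the helicase ring, MCM2 to MCM6 were called higher in both lines and MCM7 in SK-N-BE2. MCM3 rose from 122 ± 6.07 to 326 ± 5.38 CPM in SK-N-BE2 (n = 3, log2 change 1.38 ± 0.08, adjusted p 2.44e-08). In NGP its level went from 213 ± 24.7 to 461 ± 14.3 CPM (log2 change 1.09 ± 0.11, adjusted p 1.36e-04). MCM4 showed a similar pair of rises, from 105 ± 4.32 to 258 ± 6.01 CPM in SK-N-BE2 (log2 change 1.26 ± 0.08, adjusted p 3.98e-08). With DMSO, NGP had 388 ± 24.3 CPM of MCM4, and with STM2457 833 ± 13.0 CPM (log2 change 1.08 ± 0.09, adjusted p 6.41e-05). For MCM3 and MCM4 the difference between lines was not called, at 0.30 ± 0.13 (adjusted p 0.0866) and 0.19 ± 0.11 (adjusted p 0.194). MCM5 likewise rose by 1.05 in SK-N-BE2 and 0.80 in NGP.

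MCM6 and MCM2 rose more in SK-N-BE2. The DMSO libraries of SK-N-BE2 measured 58.2, 62.3 and 48.6 CPM of MCM6 and the STM2457 libraries 171, 168 and 161 CPM (log2 change 1.52 ± 0.10, adjusted p 5.00e-08). NGP measured 129, 113 and 127 CPM and 213, 189 and 216 CPM (log2 change 0.72 ± 0.10, adjusted p 8.11e-04). The difference for MCM6 was 0.82 ± 0.14 (adjusted p 6.35e-04). MCM2 rose by 1.35 (adjusted p 3.02e-08) in SK-N-BE2 and by 0.55 (adjusted p 0.00426) in NGP, with a difference of 0.81 ± 0.13 (adjusted p 4.04e-04). Exons of MCM2 overlap a gene on the other strand over 23.6% of their length, which makes its level uncertain.

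MCM7 (chromosome 7, 100092728 to 100101940, minus strand, GRCh38) set itself apart from the other ring subunits. SK-N-BE2 had 163, 161 and 157 CPM with DMSO and 286, 289 and 283 CPM with STM2457 (log2 change 0.80 ± 0.08, adjusted p 1.81e-06). NGP had 699, 496 and 558 CPM with DMSO and 591, 554 and 566 CPM with STM2457, so the groups overlapped (log2 change -0.06 ± 0.13, adjusted p 0.746). The highest DMSO value belonged to replicate 1, and without it the NGP log2 fold change was 0.09 (adjusted p 0.318). The difference between lines for MCM7 was 0.87 ± 0.15 (adjusted p 6.20e-04), and 0.70 (adjusted p 5.25e-05) without that library.

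Per exon length, MCM7 was the most abundant ring subunit in all groups but SK-N-BE2 with STM2457, where MCM3 was higher. It made up 29.6% ± 0.677 (SD, n = 3) of the summed RPKM of MCM2 to MCM7 in SK-N-BE2 with DMSO and 22.3% ± 0.303 with STM2457. In NGP its share was 41.4% ± 2.56 with DMSO and 26.3% ± 0.521 with STM2457. The share of MCM4 was 17.5% ± 1.52 and 24.2% ± 0.696 in NGP (exact permutation p 0.1), and 12.2% ± 0.676 and 12.7% ± 0.219 in SK-N-BE2, where the libraries overlapped (exact permutation p 0.5). The summed CPM of MCM2 to MCM7 was 582 ± 17.2 with DMSO and 1366 ± 20.4 with STM2457 in SK-N-BE2, a ratio of 2.35. In NGP it was 1548 ± 183 and 2456 ± 28.4, a ratio of 1.59. For both lines, and for the MCM7 shares, all STM2457 libraries lay to one side of all DMSO libraries, and the exact two-sided permutation p was 0.1, the smallest that 3 against 3 allows.

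**Figure D2:**
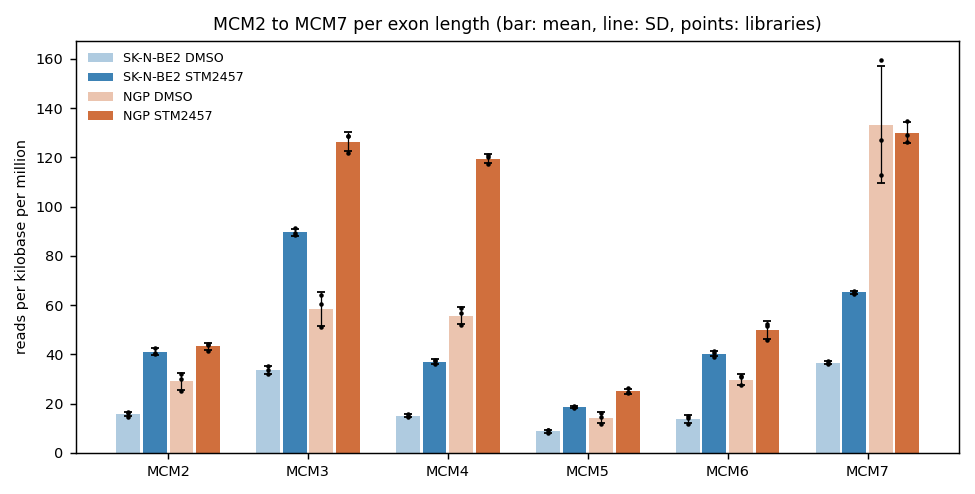
Mean level per exon length (RPKM) of MCM2 to MCM7 in the 4 groups, with the SD as a line and each library as a point. MCM3 and MCM4 stand higher with STM2457 in both lines, while the MCM7 libraries of NGP overlap.

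The loaders of the ring and their inhibitor differed. CDC6, which with ORC opens the ring for loading, rose from 30.2 ± 3.61 to 60.1 ± 3.77 CPM in SK-N-BE2 (log2 change 0.95 ± 0.10, adjusted p 4.83e-06). It rose from 94.9 ± 2.63 to 127 ± 6.00 CPM in NGP (log2 change 0.39 ± 0.09, adjusted p 0.00857), with a difference of 0.57 ± 0.13 (adjusted p 0.00532). The NGP call of CDC6 was lost without STM2457 replicate 1 (adjusted p 0.0509) or replicate 3 (0.0576). CDT1, the loader that is destroyed in S phase, had SK-N-BE2 levels of 55.1, 58.7 and 64.2 CPM with DMSO and 73.7, 59.3 and 69.1 CPM with STM2457 (log2 change 0.15 ± 0.10, adjusted p 0.221). NGP had 141, 95.1 and 108 CPM with DMSO and 83.2, 100.1 and 78.3 CPM with STM2457 (log2 change -0.42 ± 0.16, adjusted p 0.0651). The groups of CDT1 overlapped in both lines. In NGP, CDT1 was called lower without DMSO replicate 2 (-0.54, adjusted p 0.0259) and not without DMSO replicate 1 (-0.25, adjusted p 0.0683). The difference of 0.58 ± 0.20 (adjusted p 0.0414) was lost without any one of 6 libraries, namely SK-N-BE2 DMSO replicates 1 and 2 and replicates 1 and 3 of STM2457 in each line (adjusted p up to 0.104).

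Geminin, the inhibitor of CDT1, is encoded by GMNN and rose by 0.85 in SK-N-BE2 (adjusted p 1.98e-06) and 1.12 in NGP (adjusted p 6.08e-04). Per length, the ratio of GMNN to CDT1 went from 0.683 ± 0.0538 to 1.12 ± 0.109 in SK-N-BE2. In NGP it went from 0.410 ± 0.00245 to 1.20 ± 0.179. The libraries did not overlap in either line (exact permutation p 0.1, the smallest possible).

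All 6 genes of helicase activation were called higher in SK-N-BE2 (median log2 fold change 1.33) and 5 of 6 in NGP (median 0.80). GINS2, a GINS subunit, had SK-N-BE2 levels of 13.6, 14.9 and 10.3 CPM with DMSO and 44.3, 41.7 and 41.9 CPM with STM2457 (log2 change 1.69 ± 0.13, adjusted p 2.01e-07). In NGP it measured 44.1, 27.1 and 31.7 and 74.1, 63.5 and 72.0 CPM (log2 change 1.00 ± 0.18, adjusted p 0.00247). Its difference between lines, 0.70 ± 0.23 (adjusted p 0.0342), was lost without any one of 8 libraries (adjusted p up to 0.0987), that is all 3 STM2457 libraries of each line and SK-N-BE2 DMSO replicates 1 and 3. GINS4 rose by 0.96 in SK-N-BE2 (adjusted p 1.41e-05) and 1.19 in NGP (adjusted p 1.48e-04), but shares 23.4% of its exon length with genes on the other strand.

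GINS1, a further GINS subunit, was among the most divergent genes. Its DMSO libraries held 13.6, 17.5 and 12.9 CPM and its STM2457 libraries 46.9, 47.2 and 41.7 CPM in SK-N-BE2 (log2 change 1.59 ± 0.12, adjusted p 2.54e-07). The NGP values were 72.0, 67.5 and 73.1 CPM and 80.1, 92.3 and 86.9 CPM (log2 change 0.26 ± 0.10, adjusted p 0.0605). All NGP STM2457 libraries lay above the DMSO libraries without a call, and without DMSO replicate 1 the call was made (0.27, adjusted p 0.0142). The difference for GINS1 was 1.34 ± 0.16 (adjusted p 3.35e-05).

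MCM10, which helps to activate the helicase, followed a similar course. It rose from 24.8 ± 4.30 to 75.9 ± 4.78 CPM in SK-N-BE2 (log2 change 1.58 ± 0.12, adjusted p 1.97e-07) and from 92.9 ± 10.4 to 136 ± 3.55 CPM in NGP (log2 change 0.53 ± 0.11, adjusted p 0.00505). The difference was 1.06 ± 0.17 (adjusted p 3.16e-04). CDC45 rose by 1.09 and 0.60, and its difference was not called (adjusted p 0.0504).

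TICRR (treslin, chromosome 15, 89575469 to 89631056, plus strand), which lets CDK activity recruit CDC45, went the other way. SK-N-BE2 had 25.5, 25.4 and 23.9 CPM with DMSO and 37.5, 39.6 and 35.5 CPM with STM2457 (log2 change 0.55 ± 0.09, adjusted p 1.63e-04). NGP started from a like level, 23.6, 29.5 and 24.1 CPM, and reached 60.2, 58.7 and 61.4 CPM (log2 change 1.20 ± 0.12, adjusted p 1.43e-04). The groups were apart in both lines, with a difference of -0.63 ± 0.14 (adjusted p 0.00355). With all 12 libraries it was the only one of the 52 called in favour of NGP, though some other settings added CHAF1B and UNG.

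Polymerases, clamp and clamp loader were called higher for 11 of 11 genes in SK-N-BE2 (median 0.89) and for 6 of 11 in NGP (median 0.51). LIG1, the ligase that seals Okazaki fragments, had the largest rise of this role in NGP, from 38.3, 26.9 and 32.2 CPM to 90.1, 97.3 and 92.5 CPM (log2 change 1.50 ± 0.14, adjusted p 9.43e-05). In SK-N-BE2 it went from 23.8, 24.5 and 25.7 CPM to 57.0, 56.4 and 53.7 CPM (log2 change 1.14 ± 0.08, adjusted p 1.99e-07). FEN1, the nuclease that trims the same fragments, rose from 70.9 ± 17.4 to 214 ± 4.44 CPM in SK-N-BE2 (log2 change 1.56 ± 0.14, adjusted p 8.35e-07). In NGP it rose from 69.6 ± 15.0 to 146 ± 6.35 CPM (log2 change 1.05 ± 0.15, adjusted p 8.60e-04). FEN1 has a named pseudogene and is therefore uncertain.

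POLD1, the catalytic subunit of polymerase delta, rose from 17.7 ± 2.78 to 48.0 ± 6.05 CPM in SK-N-BE2 (log2 change 1.40 ± 0.12, adjusted p 9.50e-07) and from 65.3 ± 14.0 to 117 ± 17.6 CPM in NGP (log2 change 0.82 ± 0.17, adjusted p 0.00526). PCNA, the sliding clamp, was the most abundant of the 52 genes per length in SK-N-BE2, at 65.6 ± 6.44 RPKM with DMSO and 151 ± 3.99 RPKM with STM2457. It rose by 1.16 and 0.75 on the log2 scale, with 3 pseudogenes named for it. POLE, the catalytic subunit of polymerase epsilon, nearly doubled in each line, at 1.85-fold and 1.97-fold. POLA1, the catalytic subunit of polymerase alpha, rose by 1.05 ± 0.10 (adjusted p 1.22e-06) in SK-N-BE2 and 0.51 ± 0.12 (adjusted p 0.00831) in NGP, with a difference of 0.55 ± 0.15 (adjusted p 0.0119).

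PRIM1 (chromosome 12, 56731296 to 56752374, minus strand), the catalytic primase subunit and partner of POLA1, was called in opposite directions. Its SK-N-BE2 libraries held 9.95, 9.00 and 8.57 CPM with DMSO and 12.8, 12.4 and 12.6 CPM with STM2457 (log2 change 0.42 ± 0.11, adjusted p 0.00554). Its NGP libraries held 45.2, 45.0 and 51.9 CPM with DMSO and 36.4, 34.1 and 40.2 CPM with STM2457 (log2 change -0.38 ± 0.11, adjusted p 0.0249). The STM2457 libraries thus lay above the DMSO libraries in one line and below them in the other, and the difference was 0.82 ± 0.15 (adjusted p 8.26e-04). Its NGP call did not hold without DMSO replicate 3 (adjusted p 0.101), STM2457 replicate 1 (0.0977) or STM2457 replicate 2 (0.117). PRIM1 shares 22.2% of its exon length with other genes, so this value is uncertain.

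The clamp loader subunits RFC2, RFC3, RFC4 and RFC5 were called higher in SK-N-BE2, 4 of 4, where 26.9% of all genes were. In NGP 0 of 4 were called by edgeR, where 19.4% of all genes were called higher and 22.2% lower, so most genes were uncalled there. All 4 differences were called as more positive in SK-N-BE2, where 17.0% of all genes were. The NGP count stayed at 0 at an unadjusted p under 0.05 and with DESeq2. RFC4 had SK-N-BE2 levels of 24.0, 28.4 and 26.1 CPM with DMSO and 41.1, 44.0 and 41.9 CPM with STM2457 (log2 change 0.66 ± 0.09, adjusted p 6.25e-05). NGP measured 82.2, 59.5 and 64.6 CPM and 71.6, 68.1 and 71.0 CPM (log2 change 0.01 ± 0.13, adjusted p 0.976), with overlap between the groups. The differences were 0.77 ± 0.16 (adjusted p 0.00296) for RFC2, 0.62 ± 0.12 (adjusted p 0.00173) for RFC3, 0.66 ± 0.16 (adjusted p 0.00635) for RFC4 and 0.73 ± 0.14 (adjusted p 0.00184) for RFC5. In NGP the log2 fold changes of RFC2, RFC3 and RFC5 were -0.00, 0.17 and 0.09 (adjusted p 0.995, 0.209 and 0.483), against 0.75, 0.78 and 0.80 in SK-N-BE2 (adjusted p 2.21e-05, 3.75e-06 and 4.16e-05). Without NGP DMSO replicate 1 the NGP changes of RFC2 and RFC4 were 0.14 and 0.15 (adjusted p 0.152 and 0.0924), and their differences 0.61 and 0.50 (adjusted p 0.00129 and 0.00329). RFC1, the large clamp loader subunit and not among the 52 genes, was called higher in both lines, by 0.56 in SK-N-BE2 (adjusted p 1.96e-04) and 0.44 in NGP (adjusted p 0.0123), and its difference of 0.14 ± 0.14 (adjusted p 0.507) was not called. It was named after its values were seen. The summed CPM of RFC2 to RFC5 was 176 ± 12.8 with DMSO and 306 ± 9.21 with STM2457 in SK-N-BE2 (exact permutation p 0.1). In NGP it was 344 ± 29.1 and 372 ± 8.76 (exact permutation p 0.2). RFC3 and RFC5 each have a pseudogene, and RFC5 shares 10.6% of its exon length with genes on the other strand.

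The 4 members for nucleotide supply were called higher in each line, with medians of 1.52 and 1.18. Other genes of this supply, outside the 52 and named after their values were seen, did not all follow. DUT, which removes dUTP, and RRM2B, an alternative small subunit of ribonucleotide reductase, were called in neither line. Their log2 fold changes in SK-N-BE2 were 0.15 for DUT and -0.28 for RRM2B, while NGP had 0.03 for DUT and -0.24 for RRM2B. DUT shares 14.5% of its exon length with a gene on the other strand, so its values are uncertain. The kinase genes DTYMK and DCK rose by 0.45 and 0.87 in SK-N-BE2 and were not called in NGP, at -0.18 and 0.26. TK1, the S-phase thymidine kinase of the salvage route, had SK-N-BE2 levels of 19.0, 25.9 and 23.6 CPM with DMSO and 71.6, 70.2 and 68.0 CPM with STM2457 (log2 change 1.58 ± 0.11, adjusted p 1.21e-07). In NGP it measured 37.2, 21.4 and 22.8 CPM and 88.7, 81.1 and 83.1 CPM (log2 change 1.61 ± 0.20, adjusted p 4.72e-04), the first DMSO value being the high one. The lines did not differ detectably for TK1, at -0.02 ± 0.24 (adjusted p 0.975). TYMS, which makes thymidylate, rose by 1.53 ± 0.13 (adjusted p 7.86e-07) in SK-N-BE2 and 1.03 ± 0.12 (adjusted p 3.10e-04) in NGP. Its exons overlap ENOSF1 and TYMSOS on the other strand over 47.9% of their length. The difference for TYMS, 0.52 ± 0.18 (adjusted p 0.0459), was lost without any one of 9 libraries (adjusted p up to 0.133); it was kept without SK-N-BE2 DMSO replicate 2 or NGP DMSO replicate 1 or 2.

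Ribonucleotide reductase supplies the deoxynucleotides, with RRM1 as the large and RRM2 as the small, cell-cycle-regulated subunit. RRM2 had SK-N-BE2 levels of 97.8, 108 and 87.7 CPM with DMSO and 272, 305 and 274 CPM with STM2457 (log2 change 1.50 ± 0.10, adjusted p 5.63e-08). NGP measured 186, 197 and 211 CPM and 500.4, 496 and 521 CPM (log2 change 1.33 ± 0.09, adjusted p 2.76e-05). RRM1 rose by 1.50 ± 0.09 (adjusted p 2.41e-08) in SK-N-BE2 and 0.98 ± 0.09 (adjusted p 1.23e-04) in NGP, with a difference of 0.53 ± 0.12 (adjusted p 0.00478). Per length, the ratio of RRM2 to RRM1 stayed at 0.794 ± 0.0264 and 0.794 ± 0.0294 in SK-N-BE2 (exact permutation p 1), while in NGP it went from 1.51 ± 0.146 to 1.91 ± 0.0580 (exact permutation p 0.1). RRM2 has 3 named pseudogenes.

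Among the chromatin and histone factors, 5 of 5 were called higher in SK-N-BE2 and 4 of 5 in NGP, with nearly equal medians of 0.95 and 0.96. CHAF1B, a subunit of the chromatin assembly factor that places histones on new DNA, rose from 13.1, 16.9 and 13.6 CPM to 29.6, 29.7 and 27.0 CPM in SK-N-BE2 (log2 change 0.95 ± 0.11, adjusted p 1.53e-05). In NGP it rose from 20.2, 19.8 and 20.9 CPM to 53.9, 52.2 and 51.1 CPM (log2 change 1.34 ± 0.10, adjusted p 3.36e-05). HELLS, a chromatin remodeller, rose by 0.96 ± 0.10 (adjusted p 4.22e-06) and 1.08 ± 0.11 (adjusted p 1.49e-04) in SK-N-BE2 and NGP, and its activator CDCA7 by 1.27 ± 0.08 (adjusted p 4.74e-08) and 0.63 ± 0.09 (adjusted p 9.59e-04). For CDCA7 the difference was 0.66 ± 0.11 (adjusted p 5.47e-04). NASP, a histone chaperone with a named pseudogene, rose by 0.74 and 0.96.

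SLBP, which binds the stem-loop of histone mRNAs, changed least among the genes called in SK-N-BE2. It measured 53.9, 61.2 and 59.6 CPM and 73.2, 68.8 and 73.0 CPM in SK-N-BE2 (log2 change 0.26 ± 0.08, adjusted p 0.0163), a call lost without STM2457 replicate 1 (adjusted p 0.0624) or replicate 3 (0.0729). In NGP it measured 51.6, 37.7 and 39.8 CPM and 42.7, 47.6 and 44.7 CPM, which overlapped (log2 change 0.04 ± 0.14, adjusted p 0.833).

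Fork, checkpoint and repair genes were called higher for 10 of 10 in SK-N-BE2 (median 0.91) and 7 of 10 in NGP (median 0.71). CLSPN (chromosome 1, 35720218 to 35769978, minus strand) encodes claspin, which couples stalled forks to the CHK1 kinase. It had SK-N-BE2 levels of 12.4, 12.5 and 12.4 CPM with DMSO and 61.9, 70.4 and 64.3 CPM with STM2457, a 5.14-fold rise (log2 change 2.36 ± 0.09, adjusted p 6.18e-10). In NGP it measured 25.2, 26.9 and 28.8 CPM and 88.0, 79.3 and 90.1 CPM, a 3.13-fold rise (log2 change 1.64 ± 0.11, adjusted p 2.05e-05). These were the largest rises of the 52 genes in each line, and the one in SK-N-BE2 was the larger by 0.73 ± 0.13 (adjusted p 7.05e-04). Without NGP DMSO replicate 1, TK1 rose more in NGP than CLSPN, at 1.90 against 1.59. TIMELESS, which works with claspin in the fork protection complex, rose from 26.2, 19.5 and 21.3 CPM to 79.6, 82.0 and 80.0 CPM in SK-N-BE2 (log2 change 1.81 ± 0.11, adjusted p 2.40e-08). In NGP it rose from 102, 86.3 and 99.1 CPM to 272, 245 and 271 CPM (log2 change 1.43 ± 0.10, adjusted p 3.15e-05).

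CHEK1, the kinase that claspin helps to activate, rose in SK-N-BE2 and was not called in NGP. It measured 44.5, 47.5 and 41.6 CPM and 101, 106 and 102 CPM in SK-N-BE2 (log2 change 1.17 ± 0.08, adjusted p 1.29e-07). NGP started from the same range, 39.6, 43.0 and 46.5 CPM, and held 48.6, 42.4 and 50.1 CPM with STM2457 (log2 change 0.10 ± 0.11, adjusted p 0.509). The difference for CHEK1 was 1.08 ± 0.13 (adjusted p 4.24e-05). UNG, which removes uracil from DNA, rose by 0.96 ± 0.08 (adjusted p 5.06e-07) in SK-N-BE2 and 1.33 ± 0.13 (adjusted p 1.36e-04) in NGP, with 2 named pseudogenes.

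Further genes of repair and of replication control also rose. BRIP1, BLM, EXO1 and DTL, the last a substrate receptor that marks CDT1 for destruction, were called higher in both lines, with SK-N-BE2 log2 changes of 1.27, 0.82, 0.68 and 0.61. Their NGP changes were 0.71, 0.71, 0.42 and 0.92 in the same order. RAD51AP1, a DNA repair protein whose gene has a named pseudogene, rose by 0.50 ± 0.11 (adjusted p 0.00219) in SK-N-BE2. In NGP it was at 0.20 ± 0.10 (adjusted p 0.134), and was called without DMSO replicate 1 (adjusted p 0.0426). WDR76 was nearly silent in one line: its NGP libraries held 1.47, 1.60 and 1.15 CPM with DMSO and 1.09, 1.20 and 1.34 CPM with STM2457 (log2 change -0.24 ± 0.26, adjusted p 0.486). SK-N-BE2 held 20.3, 25.8 and 20.9 CPM and 41.0, 41.0 and 43.7 CPM (log2 change 0.87 ± 0.11, adjusted p 1.70e-05), and the difference was 1.12 ± 0.21 (adjusted p 0.00121).

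The E2F factors and E cyclins diverged most between the lines, with 5 of 5 called higher in SK-N-BE2 (median 1.61) and 3 of 5 in NGP (median 0.29). E2F1 (chromosome 20, 33675477 to 33686385, minus strand), an activator of the G1/S programme, had SK-N-BE2 levels of 40.8, 53.0 and 44.3 CPM with DMSO and 154, 134 and 144 CPM with STM2457 (log2 change 1.61 ± 0.10, adjusted p 5.93e-08). In NGP it measured 245, 129 and 168 CPM and 179, 194 and 173 CPM (log2 change -0.01 ± 0.20, adjusted p 0.968). Those groups overlapped, with the highest and the lowest value both among the DMSO libraries. Without DMSO replicate 1 the NGP log2 fold change of E2F1 was 0.27 (adjusted p 0.0514). Its difference of 1.64 ± 0.25 (adjusted p 2.53e-04) was the largest of the 52, and 1.34 (adjusted p 9.18e-06) without that library.

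E2F2, a second activator, rose in SK-N-BE2 from 18.7, 19.6 and 18.7 CPM to 65.2, 62.8 and 56.3 CPM (log2 change 1.66 ± 0.09, adjusted p 1.30e-08). In NGP it rose from 74.7, 67.3 and 68.6 CPM to 84.4, 86.9 and 91.0 CPM (log2 change 0.29 ± 0.09, adjusted p 0.0354). The groups did not overlap, but in NGP the call failed when any single library other than DMSO replicate 1 was left out (adjusted p up to 0.157). The difference for E2F2 was 1.38 ± 0.12 (adjusted p 2.73e-06). E2F8, a repressor that is itself made in S phase, measured 6.28, 6.12 and 5.83 CPM and 12.7, 12.9 and 13.0 CPM in SK-N-BE2 (log2 change 1.04 ± 0.11, adjusted p 5.53e-06). NGP measured 12.1, 17.9 and 17.2 CPM and 15.9, 15.2 and 16.5 CPM (log2 change -0.02 ± 0.16, adjusted p 0.951), and the difference was 1.07 ± 0.20 (adjusted p 9.55e-04).

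Both E cyclin genes rose in both lines. CCNE1 went from 12.6, 11.2 and 10.6 CPM to 20.4, 19.8 and 19.9 CPM in SK-N-BE2 (log2 change 0.77 ± 0.10, adjusted p 3.76e-05) and from 11.3, 7.14 and 9.41 CPM to 20.2, 19.5 and 20.2 CPM in NGP (log2 change 1.08 ± 0.17, adjusted p 0.00146). CCNE2 went from 3.43, 2.82 and 4.13 CPM to 11.9, 14.2 and 13.4 CPM in SK-N-BE2 (log2 change 1.89 ± 0.15, adjusted p 4.31e-07). In NGP it went from 5.98, 8.29 and 10.1 CPM to 15.5, 14.0 and 17.4 CPM (log2 change 0.92 ± 0.20, adjusted p 0.00624). The difference was called for CCNE2, 0.98 ± 0.26 (adjusted p 0.0120), and not for CCNE1, -0.30 ± 0.20 (adjusted p 0.285). Exons of CCNE2 overlap INTS8 and another gene on the other strand over 37.1% of their length.

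**Figure D3:**
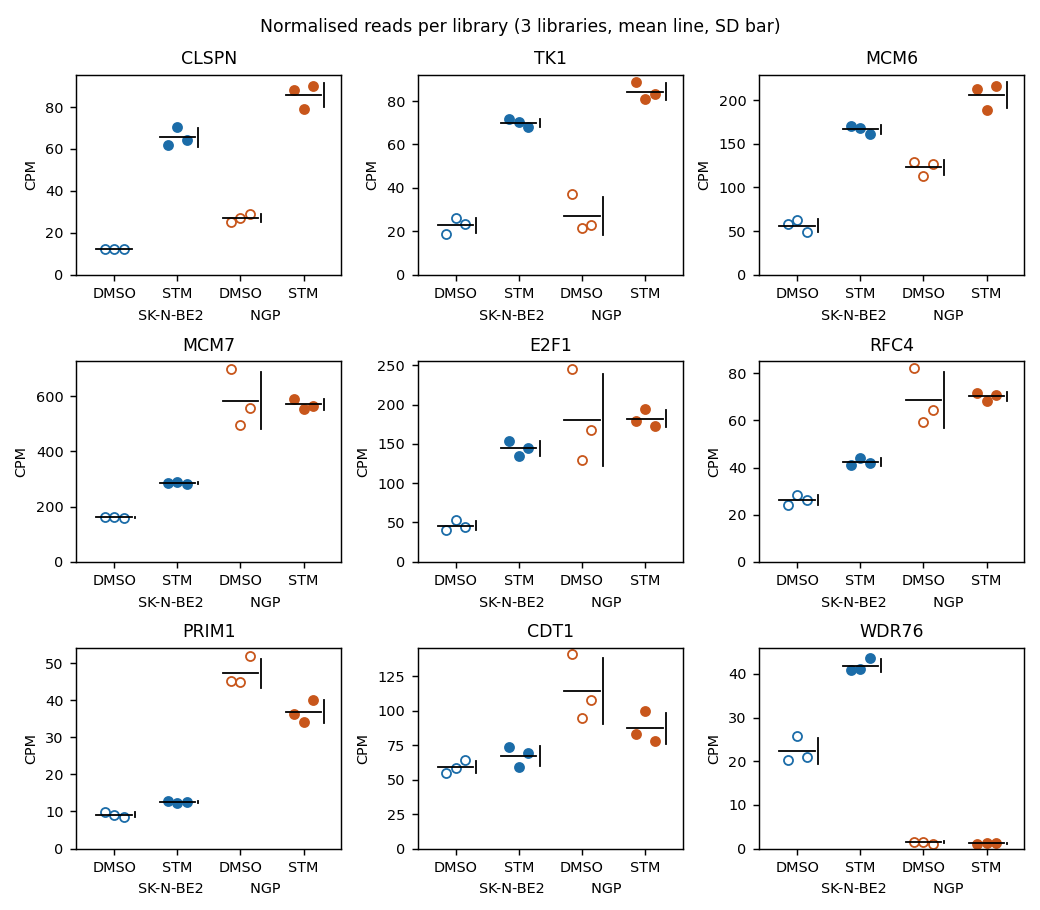
Normalised reads (CPM) of 9 genes in each library, open points for DMSO and filled points for STM2457, with the group mean as a line and the SD as a bar. CLSPN, TK1 and MCM6 rose in both lines, MCM7, E2F1, RFC4 and WDR76 in SK-N-BE2, PRIM1 was called in opposite directions, and CDT1 was called in neither line.

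Whether the lines responded differently was tested as a contrast over all 12 libraries. The rise was called larger in SK-N-BE2, or the fall smaller, for 25 of the 52 genes, where 17.0% of all 14731 genes tested were more positive in SK-N-BE2. It was called larger in NGP for 1, TICRR, where 13.9% of all genes were more positive in NGP. For 26 genes the difference was not called. Disregarding calls, 39 genes had the larger log2 fold change in SK-N-BE2 and 13 in NGP. Of the 12 genes called higher in SK-N-BE2 and uncalled in NGP, the difference was called for 10, all but SLBP and RAD51AP1. Those 12 were picked by calls on the same libraries, which favours a called difference, so this count is only a description.

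More differences were called when NGP DMSO replicate 1 was left out. The difference was then called in favour of NGP for 8 genes, where 20.4% of all genes were, and in favour of SK-N-BE2 for 26, with BRIP1 added, where 21.6% were. The 8 were TICRR (-0.59), LIG1 (-0.50), CCNE1 (-0.48), GMNN (-0.45), UNG (-0.43), ORC6 (-0.41), CHAF1B (-0.40) and NASP (-0.38), with adjusted p between 0.00192 and 0.0430. Across the 52 genes the responses in both lines correlated with Pearson r 0.475 and Spearman rho 0.376, against 0.410 and 0.390 across all 12952 genes tested in both. Genes are not independent replicates, and this is given as a description.

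**Figure D4:**
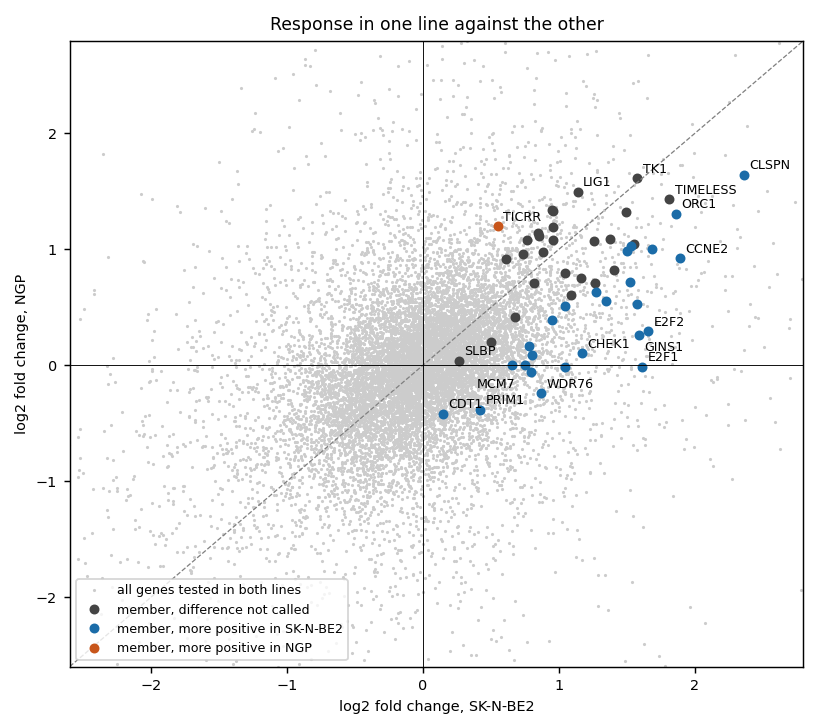
Log2 fold change in NGP against that in SK-N-BE2 for the 52 genes (large points, coloured by the call on the difference) and for all genes tested in both lines (small grey points; points beyond the axes are not shown). The 25 genes called more positive in SK-N-BE2 lie right of the dashed line of equal response, and TICRR lies left of it.

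The lines also started from different levels. With DMSO, 46 of the 52 genes had a higher mean CPM in NGP than in SK-N-BE2, with a median ratio of 2.14, against 1.02 over all genes tested in both lines. With STM2457, 44 genes were higher in NGP, with a median ratio of 1.55. The summed CPM of the 52 genes was 2184 ± 97.6 in SK-N-BE2 with DMSO and 4851 ± 73.9 with STM2457, and in NGP 4655 ± 419.9 and 7751 ± 98.1. The treated SK-N-BE2 level thus fell within the range of the NGP DMSO libraries, 4222 to 5061 CPM. Line and the possible batch cannot be told apart in these levels. Per length, the most abundant genes in NGP with DMSO were MCM7 (133 ± 23.8 RPKM) and PCNA (118 ± 25.9 RPKM), whose spreads overlapped. With STM2457 the order in NGP began with PCNA (203 ± 9.97 RPKM) and MCM7 (130.1 ± 4.30 RPKM). CCNE2 was among the 3 lowest genes in each group, at 0.787 ± 0.149 to 3.56 ± 0.385 RPKM.

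Genes of neighbouring functions were listed for comparison, and their counts are read against the 26.9% higher and 27.8% lower of all genes in SK-N-BE2 and the 19.4% and 22.2% in NGP. Of 48 other replication genes, 30 were called higher and 4 lower in SK-N-BE2 (median 0.47), and 17 higher and 4 lower in NGP (median 0.26). In this list WDHD1, a polymerase alpha adaptor, rose by 1.58 and 0.59 in SK-N-BE2 and NGP (adjusted p 4.32e-08 and 0.00534). DNA2, a nuclease for long flaps, rose by 1.24 and 1.43 (adjusted p 1.81e-07 and 2.63e-04). UHRF1, which carries DNA methylation through replication, rose by 1.36 and 1.75 (adjusted p 5.30e-08 and 3.00e-05). Of the other ORC subunits, named after their values were seen, ORC4 fell by 0.37 and ORC5 by 0.95 on the log2 scale in NGP, where ORC2 (0.26) and ORC3 (-0.09) were not called. In SK-N-BE2, ORC2 rose by 0.35 and ORC3 fell by 0.28, while ORC4 (0.04) and ORC5 (-0.08) were not called.

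Of 24 G1/S regulators, 23 were tested in each line, with 14 higher and 4 lower in SK-N-BE2 (median 0.38) and 8 higher and 5 lower in NGP (median -0.08). The share lower in NGP was near that of all genes. CDKN1A, which encodes the CDK inhibitor p21, fell by 2.12 on the log2 scale in SK-N-BE2 (adjusted p 2.79e-09) and by 1.41 in NGP (adjusted p 3.13e-05). Among other CDK inhibitor genes, CDKN1C had the lowest log2 change of the list in SK-N-BE2, at -3.71. This fall was not general, as its difference between lines was also the lowest of the list, at -4.15. CDKN2C had the highest log2 change in NGP, at 1.40, but shares 20.4% of its exon length with a gene on the other strand and is uncertain. Both were named after their values were seen. MYBL2, an activator of S and G2 genes, rose by 1.71 and 0.67 (adjusted p 1.24e-08 and 0.00687). E2F7, a repressor akin to E2F8, rose by 1.03 and 1.39 (adjusted p 1.62e-04 and 6.44e-04), so that in NGP the 2 repressors differed.

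Of 30 mitosis genes, 26 were called higher and 1 lower in SK-N-BE2 (median 0.68), and 22 higher and 1 lower in NGP (median 0.62). Their difference was called for 5 in favour of SK-N-BE2 and 4 in favour of NGP (median 0.01), beside 25 and 1 for the 52 genes of replication and G1/S (median 0.53). The shares of the mitosis genes were near those of all genes, 17.0% and 13.9%. BUB1, a spindle checkpoint kinase, rose by 1.16 and 1.11 (adjusted p 2.06e-07 and 9.09e-05). KIF20A, a kinesin of cytokinesis, rose by 0.66 and 1.50 (adjusted p 9.53e-06 and 4.56e-05). FOXM1, an activator of mitotic genes, rose by 1.68 and 0.63 (adjusted p 1.04e-08 and 8.56e-04). Its exons overlap another gene over 15.9% of their length.

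**Figure D5:**
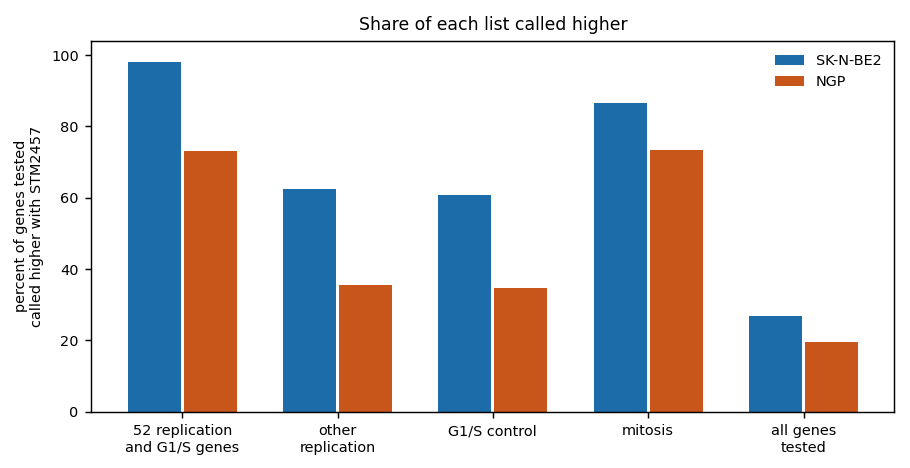
Percent of the genes tested in each list that were called higher with STM2457 in SK-N-BE2 and in NGP, beside all genes tested. The 52 genes of replication and G1/S reached 98.1% and 73.1%, against 26.9% and 19.4% of all genes.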

How the data were processed

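Polyadenylated RNA of 12 samples of SK-N-BE2 and NGP cells was sequenced, and the titles of the samples gave their line, treatment and replicate. The deposited values are raw read counts per gene, which the authors made with featureCounts 2.0.5 on exons of protein-coding genes of GENCODE 33 (GRCh38), per the file headers. Counting was unstranded, left out multi-mapping reads and could add both mates of a pair, per the file headers. As a result genes with overlapping neighbours or pseudogenes are uncertain, and counting error is wider than the counts imply. Counts that add both mates tend to be even. Of the counts from 1 to 20, 72.1% to 75.4% were even in each library. FastQC 0.11.5, Trimmomatic 0.36 and HISAT2 2.1.0 are listed in the submitters' processing notes.

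Each line was fitted on its own 6 libraries with edgeR 4.0.16 (R 4.3.3): genes were kept by filterByExpr at a minimum count of 10, scaled by TMM, tested by quasi-likelihood and p-values adjusted by Benjamini-Hochberg over all genes tested, at a threshold of 0.05. All 52 genes passed the filter. The difference was a contrast of the 4 group means over 12 libraries. Each standard error is the absolute log2 change divided by the square root of F. CPM and RPKM used TMM factors of all libraries and exon lengths of the files; without a spike-in, changes are relative. The fits were tested on simulated data. Sums and ratios per library were compared with exact two-sided permutation tests.

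Members and lists were chosen with earlier results of these data known. Named with full statistics were the 3 members of each of 7 roles with the largest absolute mean log2 fold change, and every member not called in a line, called lower or differing between lines; from each other list, 3. Alternatives were DESeq2 size factors and upper-quartile factors in edgeR, a filter at a mean of 1 CPM, no filter, the DESeq2 1.42.0 test, a replicate block, robust dispersion, counts halved, a joint fit and leaving out each library. Libraries held 47242379 to 58159937 reads, which makes counting error small for most members; 3 replicates per group limit precision. Promoter windows came from RefSeq entries, exon overlaps from a later GENCODE release. The levels of some single marker genes are not reported here.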

Additional observations from a re-analysis of the deposited data

Results flagged for a closer look

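For 26 of the 52 genes the response to STM2457 differed between the lines by a direct test of that difference. The test was edgeR's contrast of the SK-N-BE2 and NGP responses, adjusted over all genes tested. Of all genes tested, 17.0% were called more positive in SK-N-BE2 and 13.9% more positive in NGP. Differences are on the log2 scale, SK-N-BE2 minus NGP. Among E2F and cyclin E genes they were 1.64 for E2F1, 1.38 for E2F2, 1.07 for E2F8 and 0.98 for CCNE2. Helicase activation showed 1.34 for GINS1, 1.06 for MCM10, 0.70 for GINS2 and -0.63 for TICRR, the only one of the 26 in favour of NGP. Licensing showed 0.87 for MCM7, 0.82 for MCM6, 0.81 for MCM2, 0.58 for CDT1, 0.57 for CDC6 and 0.57 for ORC1. Synthesis showed 0.82 for PRIM1, 0.77 for RFC2, 0.73 for RFC5, 0.66 for RFC4, 0.62 for RFC3 and 0.55 for POLA1. The other values were 1.12 for WDR76, 1.08 for CHEK1, 0.73 for CLSPN, 0.66 for CDCA7, 0.53 for RRM1 and 0.52 for TYMS. Upper-quartile factors in edgeR lost the calls of CDT1, GINS2 and TYMS (adjusted p 0.0657, 0.0528 and 0.0714). DESeq2 size factors in edgeR also lost that of TYMS (adjusted p 0.0505). These 3 calls were also lost when some single libraries were left out. Line, dose and the possible batch cannot be told apart in any of these differences.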

How the results depend on the processing

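Leaving out 1 library at a time, the members called higher numbered 50 to 51 (SK-N-BE2) and 34 to 40 (NGP), those higher in both lines from 34 to 40, and differences in favour of SK-N-BE2 from 22 to 32. Members called lower in NGP ranged from 0 to 2, and differences in favour of NGP from 1 to 8, the highest without NGP DMSO replicate 1. Over all genes, calls ranged from 6497 to 7849 in SK-N-BE2, 3816 to 7897 in NGP and 3701 to 6274 for the difference. Median log2 fold changes ranged from 1.03 to 1.08 and from 0.73 to 0.82. The 1 member called lower in NGP became 2 with the DESeq2 test and with the joint fit, both adding CDT1. The 1 difference in favour of NGP became 3 with upper-quartile factors, 2 with a mean of at least 1 CPM and 3 with the DESeq2 test. CHAF1B was added in each of these, and UNG with upper-quartile factors and the DESeq2 test. The cause was not tested. Of members named with full statistics, none reversed direction among called values in any alternative. Same-numbered replicates showed little shared deviation (correlations -0.074 to 0.088). With 3 libraries per group this cannot exclude pairing, so whether the numbers pair the samples stays unknown. With the replicate block, 51 members were higher in SK-N-BE2, 37 in NGP (E2F2 lost) and 23 differed in favour of SK-N-BE2. Upper-quartile factors moved the share of positive calls for the difference from 55.0% to 47.0%. Depth limits few members, WDR76 in NGP being the lowest. Line, dose and the possible batch are confounded.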
